A study of Mus musculus with 4 samples.

Results

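Fgf4, its receptors Fgfr1 and Fgfr2 and 7 genes that respond to ERK were followed in mouse embryonic stem cells (mESC) that have or lack B-type lamins. The members were taken by symbol from a list of 10 genes, and all 10 had 1 row each among the 37991 genes of the count table and passed the filter on low counts. The cells were wild type (wt) or null for both B-type lamins (dKO), the proteins of the nuclear lamina encoded by Lmnb1 and Lmnb2, with 2 libraries of total RNA per genotype. All 4 libraries carried the strain label ZHBTc4, the name of an embryonic stem cell line whose endogenous Oct4 (Pou5f1) alleles are disrupted and which makes Oct4 from a tetracycline-repressible transgene. Gene counts cannot tell transgene from endogenous Oct4 transcripts. The labels speak of biological replicates, and whether each genotype was more than 1 line is not given in the sources used here, so the genotype and the line cannot be told apart. No treatment, culture medium or age was labelled.

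FGF4 is a growth factor that embryonic stem cells secrete and that binds FGF receptors on the same and neighbouring cells. The receptors signal through adaptors, RAS, RAF and MEK to the kinase ERK, which raises transcription of ETS-family factors and of inhibitors that damp the pathway again. In the early embryo this signal directs inner cell mass cells towards primitive endoderm, and in culture it moves stem cells out of the naive state.

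Total counts ranged from 12899964 to 16697970 per library. Levels are given as CPM, the reads of a gene per 1000000 reads of the library, scaled by TMM, edgeR's correction for library composition. The deleted genes bore out the labels, since Lmnb1 was at 607 ± 85.1 CPM in wt against 5.13 ± 1.26 CPM in dKO, and Lmnb2 at 111 ± 8.80 against 2.90 ± 0.54 CPM (SD, n = 2 each). The 10 embryonic stem cell markers listed summed to 4907 and 5799 CPM in wt and 5790 and 6749 CPM in dKO libraries, with 5 positive and 5 negative log2 fold changes around a median of 0.02. Zfp42, a marker of the naive state and the highest by the mean of all 4 libraries but not in wt, had 665 and 613 CPM in wt and 1447 and 1433 CPM in dKO libraries, a log2 fold change of 1.17. Its edgeR adjusted p was 0.0886, and it passed by DESeq2 (2.94e-12) and in edgeR with no low-count filter (0.000355). The 8 fibroblast markers, which would show feeder cells, summed to 7.26 and 12.3 CPM in wt and 4.85 and 5.90 CPM in dKO libraries, and all 4 tested had negative log2 fold changes. Among them Pdgfrb had 1.02 and 3.68 CPM in wt and 0.06 and 0.42 CPM in dKO libraries (-3.26, unadjusted p = 0.0154, edgeR adjusted p = 0.72).

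The sequences shown first belong to Fgf4, the member with the largest difference in level, and to Dusp6, an ERK target whose replicates lay close together. Fgf4 is known for an enhancer in its last exon where SOX2 and OCT4 bind side by side, so that the ligand is tied to the pluripotency factors. The SOX letters CTTTGTT followed after 3 bases by the POU letters ATGCTAA were searched on the transcript strand of GENCODE M21. These are the letters of the Fgf4 site itself, so a match in Fgf4 was fixed in advance. The number of genes matched is a description, not a measure of specificity. The pair was found in transcripts of 1 of 55450 genes, Fgf4, in the 3′ UTR of exon 3 (GRCm38, chr7:144864389-144864415, plus strand). In the site the capitals mark the SOX and the POU letters.
Fgf4 SOX-POU site: aaactCTTTGTTtggATGCTAAtggga
RefSeq promoter windows (GRCm38.p6) were matched for 6 of the 10 members, Fgf4, Fgfr2, Spry2, Dusp6, Etv5 and Spred1. In the 250 bases before the Fgf4 start (chr7:144861136-144861385, plus strand), the capitals mark 2 GC boxes, GGGGCGG on either strand.
Fgf4 promoter: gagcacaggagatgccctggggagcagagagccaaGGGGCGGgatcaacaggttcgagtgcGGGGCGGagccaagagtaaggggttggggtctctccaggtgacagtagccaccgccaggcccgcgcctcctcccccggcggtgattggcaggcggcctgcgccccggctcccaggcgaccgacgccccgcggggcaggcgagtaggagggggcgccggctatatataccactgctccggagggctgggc
Of 32851 windows of the same length, 21.0% held at least 1 such box and 7.44% at least 2. In the 250 bases before the Dusp6 start (chr10:99262981-99263230, plus strand), the capitals mark 3 matches to CGGAA on either strand, the core letters of many ETS factor sites.
Dusp6 promoter: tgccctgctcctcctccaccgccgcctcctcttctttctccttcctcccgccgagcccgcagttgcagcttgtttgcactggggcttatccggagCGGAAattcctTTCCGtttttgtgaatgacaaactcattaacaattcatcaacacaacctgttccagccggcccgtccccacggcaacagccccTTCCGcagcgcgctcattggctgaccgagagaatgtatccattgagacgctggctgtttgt
CGGAA was present in 25.2% of all windows and 3 or more times in 2.12%. Among the other matched members Spred1 held 1 CGGAA and 1 of the 2 Etv5 windows held 1 GC box. Both short motifs were chosen after the sequences were seen, and a match is a description of letters, not a binding site.

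The comparison of dKO with wt cells asked whether transcripts of the pathway differ when B-type lamins are missing. In edgeR's quasi-likelihood test over 14027 genes, 0.0855% of all genes reached an adjusted p under 0.05, and none of the 10 members did. At an unadjusted p under 0.05 there were 2 members, Fgf4 with a positive and Fgfr2 with a negative log2 fold change, beside 5.57% of all genes. The genotypes did not overlap for 4 members. Fgf4, Dusp6 and Etv5 were higher in both dKO libraries, a pattern seen in 17.3% of all genes, and Fgfr2 was lower, as were 16.3%. Of the log2 fold changes (dKO minus wt) 8 were positive and 2 negative, the 2 receptors, with a median of 0.13 beside -0.002 over all genes tested.

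**Figure D1:**
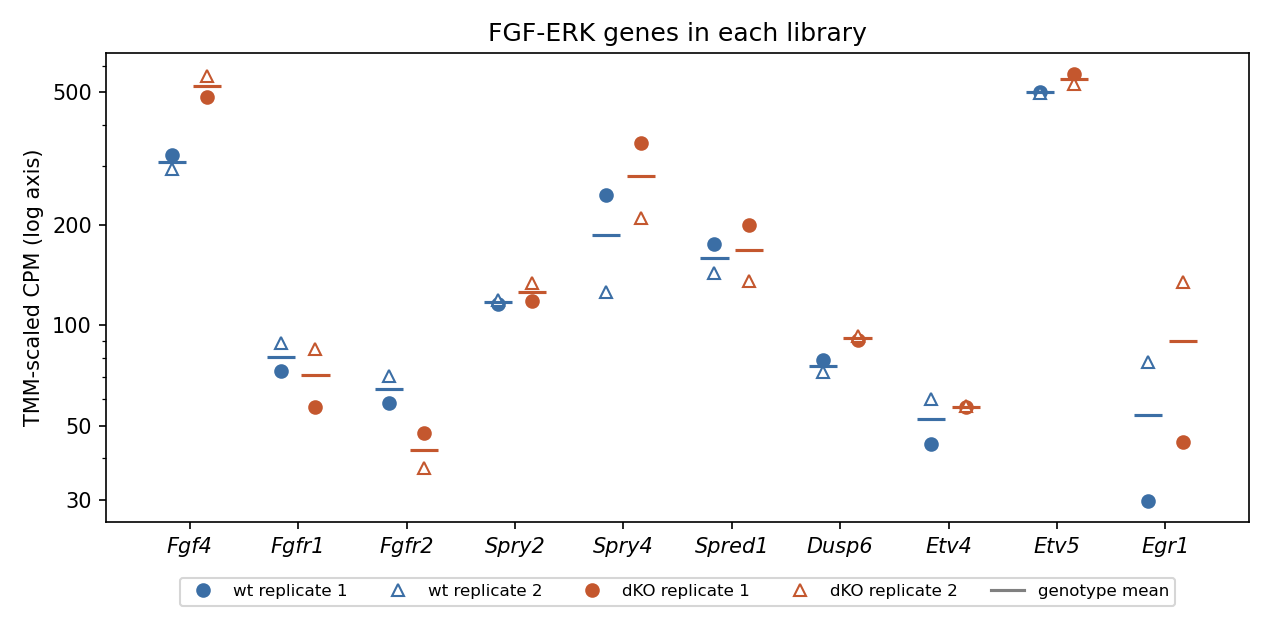
TMM-scaled CPM of the 10 members on a log axis, with 1 point per library (blue wt, orange dKO, filled circles replicate 1, open triangles replicate 2) and a bar at each genotype's mean. Fgf4 lies at 294 to 324 CPM in wt and 484 to 560 CPM in dKO libraries. In both genotypes the replicates of Egr1, Spry4, Fgfr1 and Spred1 lie further apart than the means of the genotypes.

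Fgf4 (ENSMUSG00000050917, chromosome 7, 152047291 to 152051148 in the table's own build) had 324 and 294 CPM in the wt libraries and 484 and 560 CPM in the dKO libraries. Both dKO libraries were above both wt libraries, and the replicates of each genotype lay closer together than the genotypes. The dKO mean of 522 ± 53.4 CPM was above the wt mean of 309 ± 21.5 CPM (SD, n = 2 each) by a fold of 1.69 with a 95% interval of 1.34 to 2.13. The log2 fold change was 0.76 (SE 0.13, unadjusted p = 0.00153, edgeR adjusted p = 0.338), and 6.32% of all genes tested had a larger absolute value. The call depended on the test. DESeq2 on the same genes, which called 0.684% of them, gave Fgf4 an adjusted p of 0.00242, and edgeR with no low-count filter, which called 0.351% of 22807 genes, gave 0.0266. The log2 fold change was 0.65 to 0.86 when 1 library was left out.

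The factors that bind the Fgf4 enhancer shown above did not pass the test. Pou5f1 had 875 and 750 CPM in wt and 789 and 821 CPM in dKO libraries, a log2 fold change of -0.01 (95% interval -0.34 to 0.31, edgeR adjusted p = 0.995). Sox2 had 464 and 515 CPM in wt and 451 and 572 CPM in dKO libraries, a log2 fold change of 0.06 (95% interval -0.33 to 0.45, edgeR adjusted p = 0.994). For both genes the genotypes overlapped. Neither was named by the rule for named genes, and both were chosen because of the enhancer. The Pou5f1 counts cannot tell the transgene from the endogenous gene, and transcript levels do not show binding. A link between these factors and the Fgf4 values was not tested.

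Among the genes whose pattern over the 4 libraries was closest to that of Fgf4, by Euclidean distance of centred log2 CPM among 8973 genes with a mean of at least 10 CPM, were the unnamed gene ENSMUSG00000059634 (distance 0.15) and Ppfia4 (0.16). With only 4 libraries such a ranking is a description. Ppfia4 had 31.6 and 27.3 CPM in wt and 48.9 and 48.7 CPM in dKO libraries.

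The receptors had the negative values. Fgfr2 (ENSMUSG00000030849), a receptor known from trophoblast and primitive endoderm, had 58.7 and 70.6 CPM in wt and 47.5 and 37.2 CPM in dKO libraries. Both dKO libraries were below both wt libraries, with means of 64.7 ± 8.38 and 42.4 ± 7.24 CPM (SD, n = 2 each). The log2 fold change was -0.61 (95% interval -1.05 to -0.17, SE 0.18, unadjusted p = 0.0146, edgeR adjusted p = 0.72). It was -0.79 to -0.44 when 1 library was left out. The Fgfr2 row of the table spans 3009069 bases (chromosome 7, 137305965 to 140315033), overlaps 41 other rows and shares exon sequence with Ctbp2 in GENCODE M21, so its count may not hold Fgfr2 reads alone. Ctbp2 had 362 and 314 CPM in wt and 446 and 289 CPM in dKO libraries, with overlap. Its log2 fold change was 0.12 (95% interval -0.43 to 0.67, edgeR adjusted p = 0.99). The part of Ctbp2 reads in the Fgfr2 count was not tested.

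The summed markers of the cell types in which Fgfr2 is known to act overlapped between the genotypes, though some single markers did not. The 8 trophoblast markers summed to 407 and 661 CPM in wt and 259 and 496 CPM in dKO libraries. Negative values were found for 6 of the 7 tested, with Krt8, a keratin of simple epithelia, at -0.65 (-0.09 without wt replicate 2, -1.55 without dKO replicate 2). Tfap2c, a transcription factor, was lower without overlap, at 142 and 137.5 CPM in wt and 108 and 109.5 CPM in dKO libraries (-0.36, unadjusted p = 0.0179, edgeR adjusted p = 0.723). The markers Cdx2 and Elf5 stayed at or below 1.33 CPM in all 4 libraries. Eomes, the tested marker with a positive value (0.18), had 10.5 and 17.6 CPM in wt and 14.1 and 17.9 CPM in dKO libraries, with overlap. The 10 primitive endoderm markers summed to 448 and 664 CPM in wt and 437 and 588 CPM in dKO libraries, with 5 positive and 5 negative values and a median of 0.14. The highest, Sparc, had -0.44, and the other negative values were Pdgfra at -0.24, Dab2 at -0.12, Col4a1 at -0.09 and Foxa2 at -0.05. Higher in dKO without overlap were Sox7 (2.83-fold, unadjusted p = 0.0156, edgeR adjusted p = 0.72), Gata4 (log2 fold change 0.55) and Lama1 (0.33), of which Sox7 had 4.61 and 2.10 CPM in wt and 11.2 and 7.69 CPM in dKO libraries. Of all genes tested, 17.3% were higher in dKO without overlap. Gata6 and Sox17, which define the primitive endoderm lineage, were at or below 3.50 CPM in every library, with log2 fold changes of 0.53 and 0.50. The markers Pdgfrb, Tfap2c, Cdx2, Elf5, Eomes, Sox7, Gata4, Lama1, Gata6, Sox17, Pdgfra, Dab2, Col4a1 and Foxa2 were named after their values were seen. In bulk RNA, fewer cells of a type and less RNA per cell cannot be told apart, and the part of these markers in the Fgfr2 values was not tested.

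Fgfr1 (ENSMUSG00000031565, chromosome 8, 26624126 to 26686186), the main FGF receptor of naive stem cells, had 72.9 and 88.3 CPM in wt and 57.1 and 84.7 CPM in dKO libraries. The genotypes overlapped, and replicate 2 was higher than replicate 1 in both. Its log2 fold change was -0.19 (95% interval -0.73 to 0.35, SE 0.22, edgeR adjusted p = 0.981), and it was 0.07 without dKO replicate 1.

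**Figure D2:**
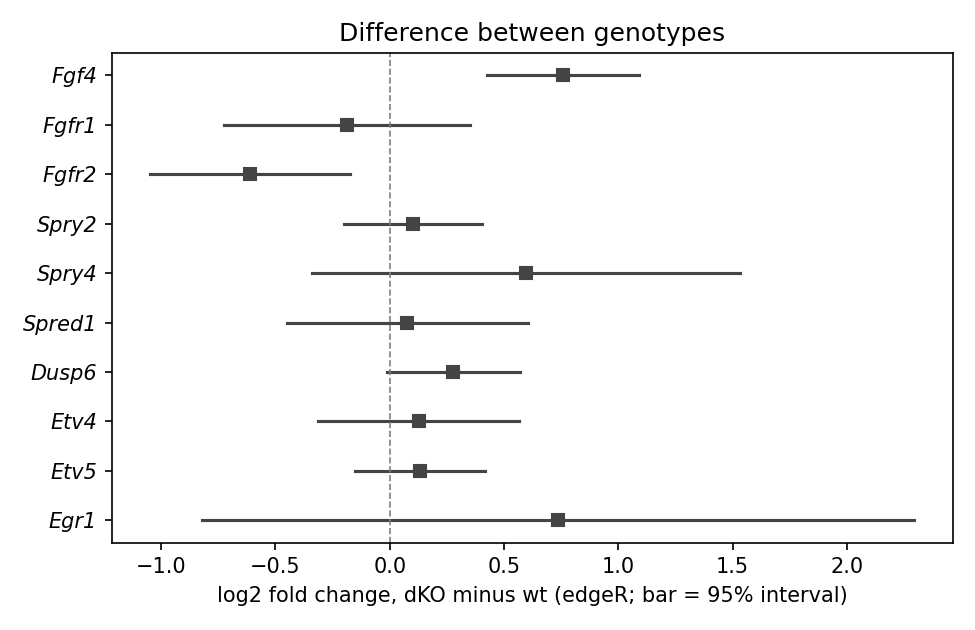
Log2 fold changes of the 10 members, dKO minus wt, from edgeR (squares) with 95% intervals (bars) on the x axis. Only the intervals of Fgf4 (0.43 to 1.09) and Fgfr2 (-1.05 to -0.17) lie to one side of 0, and those of Egr1 and Spry4 are the widest.

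The 4 feedback inhibitors had positive log2 fold changes, from 0.08 to 0.60, and none passed the test. Sprouty proteins act between the receptor and RAF, Spred1 keeps RAS inactive together with neurofibromin, and Dusp6 is a phosphatase that inactivates ERK itself. Dusp6 (ENSMUSG00000019960, chromosome 10, 98725865 to 98730122) had 78.7 and 72.6 CPM in wt and 90.6 and 92.9 CPM in dKO libraries. Its genotypes did not overlap, and the means were 75.7 ± 4.31 and 91.7 ± 1.63 CPM (SD, n = 2 each). The log2 fold change was 0.28 (95% interval -0.01 to 0.57, SE 0.12, unadjusted p = 0.0583, edgeR adjusted p = 0.899).

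Spry4 (ENSMUSG00000024427, chromosome 18, 38745922 to 38760922) had 246 and 126 CPM in wt and 352 and 210 CPM in dKO libraries. The genotypes overlapped, and replicate 1 was 1.96-fold above replicate 2 in wt and 1.67-fold in dKO cells. This gave a log2 fold change of 0.60 (95% interval -0.34 to 1.53, SE 0.38, edgeR adjusted p = 0.953). Leaving out wt replicate 1 moved it to 1.15 and leaving out dKO replicate 2 to 0.93, whereas it was 0.19 when wt replicate 2 and 0.18 when dKO replicate 1 was left out.

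Spry2 (ENSMUSG00000022114, chromosome 14, 106291166 to 106296036) had 116 and 119 CPM in wt and 119 and 134 CPM in dKO libraries, with dKO replicate 1 between the wt libraries. Its log2 fold change was 0.10 (95% interval -0.20 to 0.40, edgeR adjusted p = 0.981), or a fold of 1.07 (0.87 to 1.32). Spred1 (ENSMUSG00000027351, chromosome 2, 116947110 to 117008015) had 175 and 143 CPM in wt and 200 and 136 CPM in dKO libraries. The dKO libraries lay on either side of the wt libraries, and the log2 fold change was 0.08 (95% interval -0.45 to 0.61, edgeR adjusted p = 0.994). It turned to -0.06 when wt replicate 2 and to -0.22 when dKO replicate 1 was left out.

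The 3 ERK-responsive transcription factors differed in how steady they were. Etv5 (ENSMUSG00000013089, chromosome 16, 22381382 to 22439792), an ETS-family factor of the PEA3 group, had 501 and 498 CPM in wt and 566 and 529 CPM in dKO libraries. Both dKO libraries were above both wt libraries, by a small margin. Its log2 fold change was 0.13 (95% interval -0.15 to 0.42, SE 0.12, edgeR adjusted p = 0.978). Etv4 (ENSMUSG00000017724, chromosome 11, 101631056 to 101646685), of the same group, had 44.2 and 60.3 CPM in wt and 56.7 and 57.5 CPM in dKO libraries, with both dKO libraries between the wt libraries. Its log2 fold change was 0.13 (95% interval -0.31 to 0.57, edgeR adjusted p = 0.987), and it was -0.08 without wt replicate 1.

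Egr1 (ENSMUSG00000038418, chromosome 18, 35019477 to 35024638), a zinc finger factor and immediate-early gene that responds to ERK through SRF and its ETS partners, varied more between libraries than any other member. It had 29.8 and 77.9 CPM in wt and 44.7 and 135 CPM in dKO libraries. Replicate 2 was 2.62-fold above replicate 1 in wt and 3.03-fold in dKO cells. Only 0.602% of 8974 genes with a mean of at least 10 CPM had a larger replicate gap in wt, and 0.223% in dKO cells. For Spry4 these shares were 2.28% and 3.97%, with replicate 1 the higher library. The genotype means of Egr1 were 53.8 ± 34.1 and 89.9 ± 64.0 CPM (SD, n = 2 each). The log2 fold change was 0.74 (95% interval -0.82 to 2.30, SE 0.63, edgeR adjusted p = 0.978). It turned to -0.27 when dKO replicate 2 was left out and was 0.20, 1.60 and 1.33 when wt replicate 1, wt replicate 2 or dKO replicate 1 was.

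**Figure D3:**
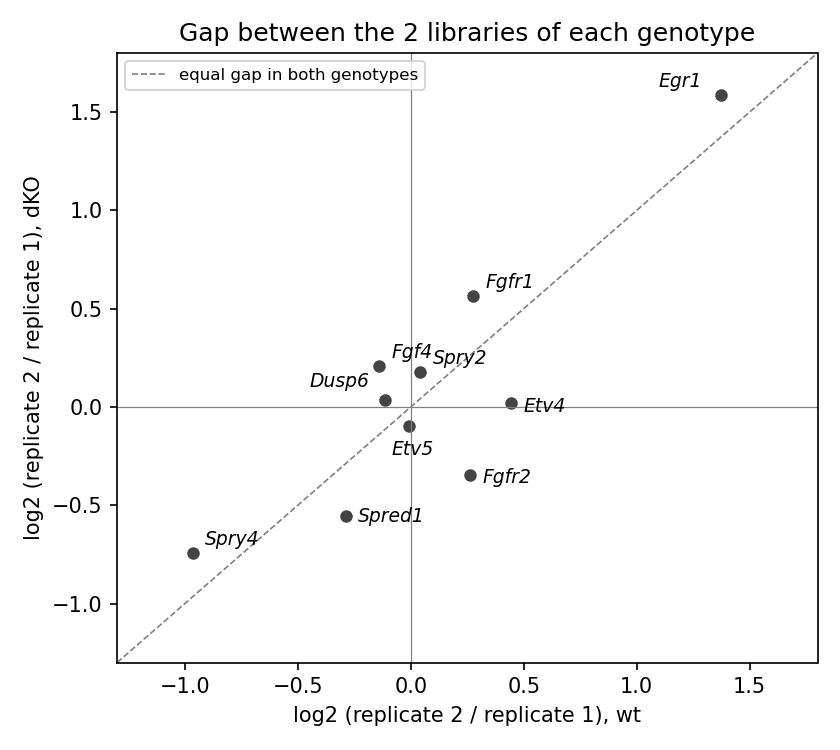
Log2 ratio of replicate 2 to replicate 1 in wt (x axis) and dKO cells (y axis), 1 point per member, with a dashed line where the gap is equal. Egr1 (1.37 in wt, 1.59 in dKO) and Spry4 (-0.97 in wt, -0.74 in dKO) lie far from 0 in the same direction in both genotypes, and Fgf4 (-0.14 in wt, 0.21 in dKO) lies near 0.

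The 2 members with the widest gaps, Egr1 and Spry4, were thus high in different libraries. Spred1 and Etv5 were highest in the same library of each genotype as Spry4, and Fgfr1, Etv4 and Spry2 in the same as Egr1. Some of these gaps were small, at 1.03-fold for Spry2 and 1.01-fold for Etv5 in wt, and 1.01-fold for Etv4 in dKO cells. The 4 feedback inhibitors summed to 616 and 461 CPM in the wt libraries and to 761 and 573 CPM in the dKO libraries, with overlap. The 3 transcription factors summed to 575 and 636 CPM in wt and to 667 and 722 CPM in the dKO libraries, without overlap. Etv5 was the largest part and the only one of the 3 without overlap by itself, since Etv4 and Egr1 overlapped. Among single genes tested, 17.3% were higher in dKO without overlap.

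Levels of different genes were compared as CPM per kilobase of exon in GENCODE M21. In wt cells Etv5 stood first at 122 ± 0.59, followed by Fgf4 at 96.6 ± 6.72, Spry2 at 56.4 ± 1.17 and Spry4 at 39.2 ± 17.9 CPM per kilobase (SD, n = 2 each). Dusp6 followed at 24.2, Spred1 at 23.5, Etv4 at 16.8 and Egr1 at 12.0, and the receptors were lowest, with Fgfr1 at 8.16 and Fgfr2 at 6.26 CPM per kilobase. Dusp6 overlapped with Spred1, Etv4 with Egr1 and Egr1 with Fgfr1, so these neighbours did not differ beyond the spread of their libraries. In dKO cells Fgf4 stood first at 163 ± 16.7 CPM per kilobase and Etv5 second at 133 ± 6.34. The means of Egr1 and Etv4 also changed places, but these genes overlapped in dKO as well. The dKO libraries of Egr1, at 9.96 and 30.15 CPM per kilobase, lay on either side of those of Etv4, at 18.28 and 18.52. The lengths cover every annotated exon, and those of the receptors, 9875 bases for Fgfr1 and 10328 bases for Fgfr2, include many alternative exons, so their values per kilobase may be low.

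The rest of the pathway was taken from lists of 109 genes by role, of which 108 had a row and 93 were tested. None passed in edgeR, DESeq2 or limma-voom with the genotype as the only term. At an unadjusted p under 0.05 edgeR had 5 genes with positive and 2 with negative log2 fold changes, beside the 5.57% of all genes at that threshold. The median over the 93 genes was 0.05.

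The other FGF ligands were low, and 9 of 21 passed the filter. The highest was Fgf17, at 10.3 and 5.78 CPM in wt and 12.1 and 4.41 CPM in dKO libraries, with a log2 fold change of 0.04, and next came Fgf1 at 0.46 (0.05 without wt replicate 1, 1.03 without wt replicate 2). Fgf10, with the smallest p of the list, had 0.74 (edgeR adjusted p = 0.921). No other ligand had a mean above 8.16 CPM. Of the 8 other receptors and co-receptors 6 were tested, none above 9.61 CPM in any library. Fgfr3 had a log2 fold change of -0.15, Fgfr4 of 0.51 and Flrt3, a membrane protein that associates with FGF receptors, of -0.15.

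Heparan sulphate chains hold FGFs at their receptors, and all 18 genes of their synthesis and core proteins were tested, with a median log2 fold change of 0.03. Sulf2, which removes sulphate groups from the chains, had 217 and 154 CPM in wt and 245 and 244 CPM in dKO libraries (0.40, edgeR adjusted p = 0.907). Glce, an epimerase of the chain, had 71.5 and 47.5 CPM in wt and 90.0 and 79.3 CPM in dKO libraries (0.51, edgeR adjusted p = 0.893). Sulf2 and Glce were among 5 genes of this list higher in dKO without overlap, and 1 was lower. The shares over all genes tested were 17.3% and 16.3%. Without wt replicate 1 and without wt replicate 2 Sulf2 had 0.67 and 0.17, and Glce 0.83 and 0.25. Hs6st1, a sulphotransferase, had -0.15.

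All 16 adaptor and RAS genes were tested, and 11 values were positive and 5 negative, around a median of 0.12. Nras, which encodes a RAS GTPase, had 242 and 229 CPM in wt and 271 and 270 CPM in dKO libraries, a log2 fold change of 0.20 (edgeR adjusted p = 0.942). The adaptor Gab1 had 0.20. In this list 5 genes were higher in dKO without overlap, Nras and Gab1 among them, and 3 were lower. The shares over all genes tested were 17.3% higher and 16.3% lower.

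The 13 kinases and scaffolds from RAF to the kinases below ERK had a median log2 fold change of -0.01, and 6 values were positive and 7 negative. Braf, a RAF kinase, had 87.5 and 101 CPM in wt and 126 and 130 CPM in dKO libraries, a log2 fold change of 0.44 (95% interval 0.13 to 0.75, unadjusted p = 0.0142, edgeR adjusted p = 0.72). Pebp1, an inhibitor of RAF, had 0.24. These transcript levels say nothing of kinase activity, which was not measured.

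**Figure D4:**
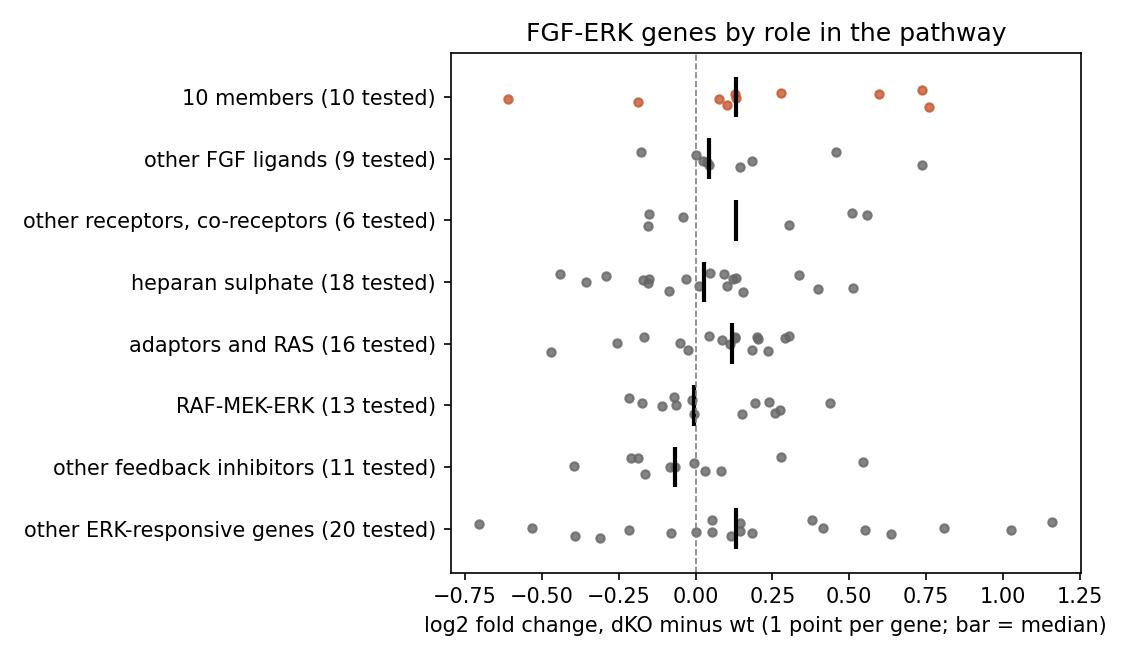
Log2 fold changes, dKO minus wt, of the 10 members (orange) and of the tested genes of 7 pathway lists (grey), 1 point per gene, with a bar at each median. Every median lies between -0.07 and 0.13, and the widest range is that of the other ERK-responsive genes, from -0.70 to 1.16.

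The 11 other feedback inhibitors tested had a median log2 fold change of -0.07, with 4 positive and 7 negative values. Dusp9, an ERK phosphatase, had 79.0 and 104 CPM in wt and 64.1 and 75.1 CPM in dKO libraries (-0.40, edgeR adjusted p = 0.907), opposite in sign to Dusp6, with -0.18 without wt replicate 2, and Spred2 had 0.08. The 20 other ERK-responsive transcription factors and early genes had a median of 0.13, with 14 positive and 6 negative values. Fos, an immediate-early gene like Egr1, had 9.45 and 10.5 CPM in wt and 14.8 and 25.9 CPM in dKO libraries, a log2 fold change of 1.03 (95% interval 0.28 to 1.78, unadjusted p = 0.0156, edgeR adjusted p = 0.72). Ier2 had 0.18 and Klf6 -0.08. The other genes of this list with an unadjusted p under 0.05, named after their values were seen, were Egr4 (1.16), Fosb (0.81) and Ccnd1 (0.64) with positive and Fosl2 (-0.70) with negative log2 fold changes.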

How the data were processed

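A table of raw counts per Ensembl gene was deposited by the authors, 1 column per library (TruSeq RNA kit, per the labels' protocols). The submitters' processing notes list TopHat2 2.0.6, TopHat and HTSeq without saying what each did. Build, annotation and strandedness of counting were not stated, so values of overlapping or antisense genes are uncertain, and positions are those in the table. GENCODE M21 supplied symbols for 32919 of 37991 rows, and exon lengths.

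The titles gave the groups, 2 libraries each of wt and dKO, and every pair of libraries differed by more than sampling noise. The chi-square per degree of freedom was lowest between the genotypes at the same replicate number, 13.8 for replicate 1 and 16.6 for replicate 2. It was 21.5 within wt and 21.6 within dKO, and 27.3 and 33.9 for the other pairs. After filterByExpr and TMM scaling, edgeR 4.0.16 in R 4.3.3 fitted genotype alone with the robust quasi-likelihood F test, and p-values were adjusted by Benjamini-Hochberg over the 14027 genes kept (threshold 0.05). CPM is relative to a library's total count times its TMM factor. SEs and 95% intervals were derived from F. Exact permutation of 2 against 2 libraries cannot give p below 0.333. P-values measure the spread between these libraries only, which may be technical in part. The scripts were tested on simulated counts.

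Members and lists were chosen with earlier results of these data known. Named genes were, by rule, the 10 members, from each pathway list any called genes or else the 2 with the highest CPM and the 1 with the smallest p, and from each marker list the highest gene, not all of which are reported here. Alternatives were 2 other filters, DESeq2 size factors, total counts alone, DESeq2 1.42.0, limma-voom (limma 3.58.1), a replicate block and leaving out each library.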

Additional observations from a re-analysis of the deposited data

How the results depend on the processing

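With each of the 11 alternatives the median log2 fold change of the members stayed positive (0.11 to 0.17), and Fgf4, Fgfr2, Spry2, Spry4, Dusp6 and Etv5 kept the direction of their difference. The 12 genes called over the whole table became 80 with no low-count filter, 96 by DESeq2 (272 genes had no adjusted p), 5 by limma-voom; leaving out 1 library gave 18 to 27. The members called went from 0 to 1, Fgf4, with no filter and by DESeq2, and stayed at 0 with 1 library left out. The titles share replicate numbers without saying what pairs them. Across genes the same-numbered libraries deviated together (r = 0.69), which hints at pairing but is not part of the stated design. With a replicate block 1299 genes were called (9.26%), among them 4 members and 12 pathway genes. The members were Fgf4 (0.76, edgeR adjusted p = 1.78e-05), Egr1 (0.70, 5.97e-05), Spry4 (0.63, 6.92e-05) and Fgfr2 (-0.62, 0.00509), and Dusp6 had 0.28 (0.0717). Among the pathway genes called there were Fos, Glce, Braf, Dusp9 and Sulf2. Fgf17, at 0.04, had -0.059 by limma-voom and -0.029 with the replicate block. With 1 library left out some uncalled log2 fold changes lay on both sides of 0: Fgfr1 from -0.49 to 0.074, Spred1 from -0.22 to 0.33, Etv4 from -0.084 to 0.37, Egr1 from -0.27 to 1.60, Fgf17 from -0.86 to 0.60, Fgfr3 from -0.40 to 0.071, Hs6st1 from -0.35 to 0.073, Spred2 from -0.023 to 0.19, Klf6 from -0.53 to 0.34 and Sparc from -0.98 to 0.031. The median of the other FGF ligands ran from -0.18 to 0.43. Others kept their sign but moved by over 1.5 times, among them Fos from 0.58 to 1.38, Fgfr4 from 0.24 to 0.82 and Krt8 from -1.55 to -0.087. The cause of these changes was not tested. In such fits 1 library stands alone and is assumed to vary like the other genotype.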
